A study of Mus musculus with 74 samples.

Results

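RNA was compared between embryonic day 14 (E14) and E16 in wild-type mouse small intestine, the interval in which the first villi form. The comparison rests on 4 libraries, 2 at E14 and 2 at E16, chosen by their labelled organ, genotype and day from the 27 embryonic RNA libraries used here, in a series of 74 samples. Of these 27, 20 are WT and 7 are Cdx2-/- small intestine with the gene deleted at E10, E13 or E15. The WT libraries are of E12 to E18. Those with the gene deleted at E10 or E13 are of E16, and those with it deleted at E15 are of E18. All 27 entered the fit and so shared the filter, the scaling and the estimate of spread. All 4 came from CD1 embryos that carried no engineered allele and received no treatment. At both days the gut was digested with trypsin, and cells carrying Epcam, the epithelial surface protein, were sorted and used at once for RNA. The label of the cell type reads midgut at E14 and small intestine at E16, while titles and protocols name the small intestine at both days. The number of embryos behind each library is not stated, so the spread between libraries of a group may be technical. P-values rest on that spread as estimated over all 27 libraries, not on these 4 alone. WT hindstomach (glandular stomach) and forestomach (squamous stomach) libraries of the same days, 2 per day and organ, served for comparison.

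Before villi form, the intestinal tube is lined by a thick pseudostratified layer of dividing epithelial cells. Epithelial Hedgehog and Pdgf ligands signal to the mesenchyme beneath, where cell clusters gather at the sites of future villi. The epithelium above these clusters turns columnar, leaves the cell cycle and begins to make the brush border, the digestive enzymes and the lipid carriers of enterocytes. Dividing cells stay between the villi, where Wnt and Notch signals act on progenitors. The mucus-secreting goblet cells and the hormone-secreting enteroendocrine cells are known to appear in the same days.

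Total counts were 62463167 and 20458113 at E14 and 18306362 and 16685602 at E16, so the first E14 library was 3.05 times as deep as the second. Values are CPM, a library's counts scaled to a common TMM-adjusted library size, and 3 counts correspond to between 0.0408 and 0.164 CPM in these 4 libraries. Epcam itself, the gene of the sort, was at 1429 and 1208 CPM at E14 and 1284 and 1291 CPM at E16. The 2 E14 libraries differed from each other in nuclear RNAs: Malat1 was at 1012 and 214 CPM and Xist, the RNA of the inactive X chromosome, at 289 and 65.6 CPM. Both E14 libraries held 0 counts of the Y-linked genes Ddx3y, Eif2s3y and Uty, which stood at 13.9 and 15.7, 14.3 and 19.1 and 6.94 and 11 CPM at E16. The hindstomach and forestomach libraries of E14 held 0 counts of these genes too, while those of E16 held counts of them. The day and the sex of the embryos therefore cannot be told apart, for sex-linked genes or any others. The part of sex in the differences between E14 and E16 was not tested and cannot be separated here.

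Of 17239 genes tested, 2363 (13.7%) were called higher and 2052 (11.9%) lower at E16, by an edgeR quasi-likelihood test with a Benjamini-Hochberg adjusted p below 0.05 and an absolute log2 fold change of at least 1. The median log2 fold change over all tested genes was -0.08. Under another scaling (RLE) this median was 0.03, a shift of 0.11, and 2725 genes were called higher and 1619 lower. Single genes could move further than the median: Atp5b went from 0.867 to 1.025 and Dpp4 from 0.857 to 1.013. Changes were ranked among called genes with an average log2 CPM of at least 2 over the 27 libraries and groups that do not overlap. The largest increases were those of Retnlb, Zg16, AI747448, Eif2s3y, Ddx3y, Ces2e, Cela2a, Slc6a19, Clec2e and Slc9a3. Several of these had 0 or few counts at E14, so their order depends on the prior count. Zg16, a lectin-like protein of goblet cell granules, had 0 counts in both E14 libraries and 106 and 88.7 CPM at E16, at least 1225-fold higher against a floor of 3 counts per library. The Y-linked Eif2s3y and Ddx3y are the sex-linked genes described above. The largest decreases were those of Wnt7b, Nkx6-1, Gm16551, Gulo, Col9a1, Cers3, Adamts16, Dnah1, Cnksr2 and Ces1d. Wnt7b, a Wnt ligand, fell from 16.5 and 19.2 CPM to 0 counts in both E16 libraries, at least 114-fold lower.

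**Figure D1:**
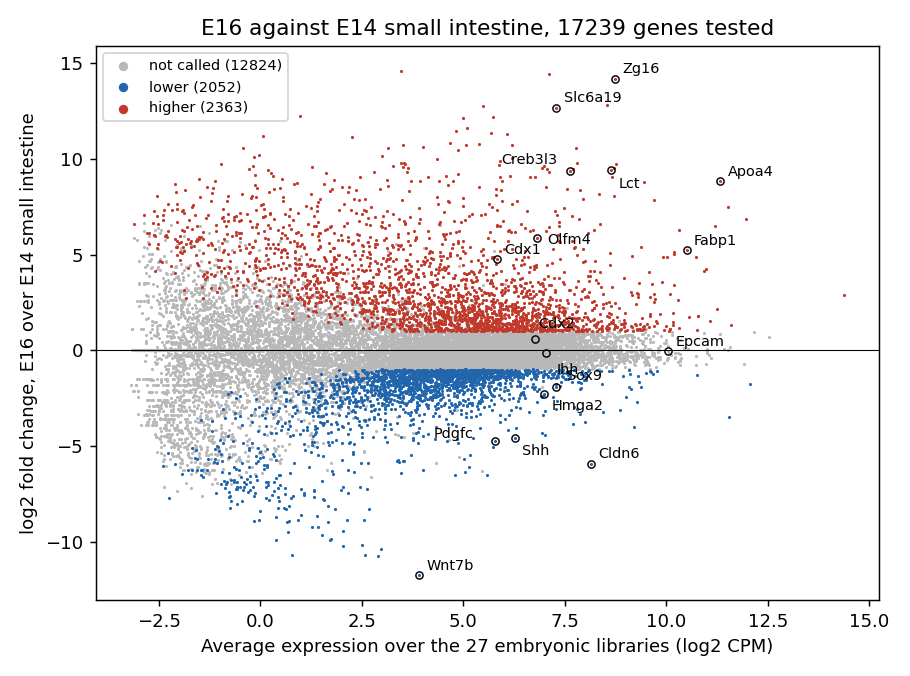
Each point is 1 of 17239 tested genes, with average log2 CPM over the 27 embryonic libraries on the x axis and log2 fold change of E16 over E14 small intestine on the y axis. Red marks the 2363 genes called higher and blue the 2052 called lower; enterocyte and goblet genes such as Apoa4 and Zg16 lie high, Cldn6, Shh and Wnt7b lie low, and Epcam and Ihh lie near 0.

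Most structural genes of the brush border were called higher. Of 26 members tested, 17 were called higher and 1 lower, with a median log2 fold change of 1.28, against 13.7% called higher and a median of -0.08 over all genes. Vil1, which encodes the microvillar actin bundler villin, was at 147 and 151 CPM at E14 and 537 and 561 CPM at E16, and both E16 libraries lay above both E14 libraries (log2 fold change 1.88 ± 0.25 (SE), adjusted p = 9.98e-06). Myo1a, the motor that ties the actin core to the membrane, was at 10.5 and 13.6 CPM at E14 and 176 and 153 CPM at E16 (log2 fold change 3.78 ± 0.42 (SE), adjusted p = 1.00e-06). The microvillar cadherins Cdhr2 and Cdhr5, whose links pack microvilli together, had log2 fold changes of 3.52 ± 0.33 and 3.29 ± 0.59. Their partner Ush1c had a smaller change of 1.79 ± 0.46, and Anks4b (1.31 ± 0.51) lost its call when any 1 of the 4 libraries was left out, under DESeq2 and in WT libraries alone. Eps8l3 was at 14.6 and 14.8 CPM at E14 and 325 and 311 CPM at E16, the largest called change on the list. Ezr, which links actin to the membrane, was not called, at 557 and 558 CPM at E14 and 751 and 662 CPM at E16 (log2 fold change 0.34), and neither was the bundler Espn (0.77). Pls3, a bundler that lies outside the set typical of mature enterocytes, was called lower at 35.6 and 38.4 CPM at E14 and 20.1 and 16.6 CPM at E16, a call that RLE scaling and DESeq2 ended with a log2 fold change of -0.85, as did WT libraries alone, only the groups compared, thinning, and leaving out the second E14 or second E16 library.

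Most digestive enzymes of the brush border were called higher, several from levels near 0. Of 22 hydrolase genes tested, 16 were called higher and 0 lower, against 13.7% and 11.9% over all genes, with a median of 4.14 that became 3.37 when genes at 0 in a whole group were set to their bound. Lct, the lactase of milk digestion, was at 0.748 and 0.434 CPM at E14 and 483 and 423 CPM at E16 (log2 fold change 9.45 ± 0.45 (SE), adjusted p = 6.80e-11). Alpi, an intestinal alkaline phosphatase, was at 7.63 and 6.35 CPM at E14 and 676 and 615 CPM at E16, and the peptidases Mme and Mep1b had log2 fold changes of 6.29 ± 0.73 and 6.12 ± 0.76. In each of these the 2 E16 libraries lay far above the 2 E14 libraries. By contrast with these, Anpep, Dpp4 and Mgam were already abundant at E14: Anpep was at 104 and 125 CPM at E14 and 422 and 356 CPM at E16 and was called, while Dpp4, at 171 and 199 CPM at E14 and 343 and 327 CPM at E16, and Mgam, at 43.7 and 46.8 CPM at E14 and 110.1 and 89 CPM at E16, were not. RLE scaling called both higher (1.01 and 1.30), DESeq2 called Dpp4, and Mgam was also called in WT libraries alone, with only the groups compared and with the replicate block. Sis, the sucrase-isomaltase of the weaned gut, had 1 count in all at E14 and 7.15 and 6.82 CPM at E16, and its call was lost without the first E14 library. Akp3 had 0 counts at E14 and 0.604 and 0.60 CPM at E16, at least 7.57-fold higher, with its call lost under DESeq2 and without the first E14 library, and Treh, the trehalase, had 0 counts in all 4 libraries.

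Carriers of nutrients rose almost throughout. Of 27 genes tested, 24 were called higher and 0 lower, against 13.7% and 11.9% over all genes, with a median log2 fold change of 4.01. Slc6a19, the main apical carrier of neutral amino acids, had 1 count in the E14 libraries and 105 and 98.1 CPM at E16, a ratio of 10054 (95% counting interval 1803 to 397224). Slc5a1, the apical sodium-glucose carrier, was at 22.9 and 27.5 CPM at E14 and 422 and 424 CPM at E16 (log2 fold change 4.07 ± 0.71 (SE), adjusted p = 1.52e-04), and Slc2a2, the basolateral glucose carrier, at 7.89 and 9.19 CPM at E14 and 17.5 and 23 CPM at E16, a call that DESeq2 and leaving out any 1 of the 4 libraries ended. The cystine and dibasic amino acid carrier is a pair of Slc3a1, at 1.05 and 1.58 CPM at E14 and 143 and 135 CPM at E16, and Slc7a9, at 11.1 and 10.7 CPM at E14 and 195 and 174 CPM at E16. Slc15a1, the peptide carrier, remained low at both days, at 0.381 and 0.276 CPM at E14 and 5.54 and 3.66 CPM at E16, though called higher. Slc9a3, the apical sodium-proton exchanger, went from 0 counts to 26.4 and 19.8 CPM, at least 290.2-fold higher. The chloride exchanger Slc26a3 and the phosphate carrier Slc34a2 had log2 fold changes of 8.42 ± 0.31 and 6.70 ± 1.56. Slc16a1, Slc36a1 and Slc46a1 were not called. Among genes of metal handling, 12 of 20 tested were called higher and 1 lower, against 13.7% and 11.9% over all genes. The count called lower fell to 0 without the first E14 or the first E16 library and in WT libraries alone. Those called higher included the iron importer Slc11a2 (1.88 ± 0.16), the zinc importers Slc39a4 (2.97 ± 0.38) and Slc39a5 (2.71 ± 0.41), and the metallothionein Mt1, at 237 and 184 CPM at E14 and 1413 and 1306 CPM at E16. The transferrin receptor Tfrc, at 712 and 794 CPM at E14 and 444 and 509 CPM at E16, and the iron exporter Slc40a1, at 433 and 476 CPM at E14 and 432 and 418 CPM at E16, were not called.

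Genes of fat absorption rose in nearly every member. Of 28 tested, 25 were called higher and 0 lower, against 13.7% and 11.9% over all genes, with a median log2 fold change of 3.45. The apolipoprotein Apoa4, a surface protein of chylomicrons, was at 8.74 and 7.73 CPM at E14 and 3912 and 3609 CPM at E16 (log2 fold change 8.83 ± 0.81 (SE), adjusted p = 8.71e-08). Apoa1 was at 140.5 and 121 CPM at E14 and 2541 and 2448 CPM at E16, Apoc3 at 0.912 and 0.789 CPM at E14 and 338 and 308 CPM at E16 and Apoc2 at 1.61 and 1.26 CPM at E14 and 418 and 379.9 CPM at E16. All 4 apolipoproteins were at low to moderate levels in both E14 libraries and many times higher in both E16 libraries. The fatty acid binding proteins Fabp1 and Fabp2 were at 53.5 and 43.7 CPM at E14 and 1855 and 1813 CPM at E16, and at 55.8 and 46.4 CPM at E14 and 1496 and 1495 CPM at E16, respectively (log2 fold change 5.24 ± 0.49 (SE), adjusted p = 1.02e-07, for Fabp1). Mttp, which loads lipid onto apolipoprotein B, had a log2 fold change of 4.86 ± 0.24, whereas Apob itself started high, at 238 and 211 CPM at E14 and 959 and 804 CPM at E16 (1.97 ± 0.34). Mogat2 (3.45 ± 0.20), Dgat1 (3.04 ± 0.18) and Dgat2 (3.63 ± 0.26), which encode enzymes of triglyceride synthesis, were called higher. The cholesterol importer Npc1l1 rose (5.71 ± 0.64), and so did the retinol carrier Rbp2, at 3.27 and 2.52 CPM at E14 and 688 and 669 CPM at E16. Creb3l3, a membrane-bound transcription factor known to act on apolipoprotein genes, was at 0.422 and 0.592 CPM at E14 and 319.9 and 321 CPM at E16 (log2 fold change 9.38 ± 0.70 (SE), adjusted p = 1.09e-08). Scarb1, Fabp6 and Pnliprp2 were not called, Fabp6 except with only the groups compared.

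Most genes for burning fat, and many of those for respiration, were called higher. Of 29 fatty acid oxidation genes tested, 19 were called higher and 0 lower, against 13.7% and 11.9% over all genes, and all 29 had a positive log2 fold change (median 1.36). Pdk4, which diverts mitochondria from glucose to fat, was at 0.871 and 0.276 CPM at E14 and 52.2 and 47.2 CPM at E16 (log2 fold change 6.21 ± 0.43 (SE), adjusted p = 2.59e-09), and Acaa2, an enzyme of the mitochondrial oxidation cycle, at 190.0 and 177 CPM at E14 and 1575 and 1500.3 CPM at E16. Of 77 subunit genes of oxidative phosphorylation tested, 31 were called higher and 0 lower, with 76 positive values and a median of 0.92. Most of them thus lay near the fold minimum: 70 passed on the adjusted p alone, against 19.5% of all genes on the higher side, 47 were called under RLE scaling and 17 without the second E14 library. Atp5a1, a subunit of ATP synthase, was at 1283 and 1183 CPM at E14 and 2582 and 2515 CPM at E16 (0.98 without the second E14 library), and the succinate dehydrogenase subunit Sdhb at 231 and 198 CPM at E14 and 525 and 554 CPM at E16. Of 25 cholesterol synthesis genes, 2 were called higher, Srebf1 and Stard4, and none lower, against 13.7% higher and 11.9% lower over all genes. On the adjusted p alone 12 were higher and 2 lower, and 19 had a positive value. Under RLE scaling or DESeq2 5 were called higher, Srebf1 lost its call without the first E14 or first E16 library, and Stard4 without the second E14 library.

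Promoter sequences were examined for letters bound by regulators known in the gut, since enterocyte genes moved together. The window ran from 250 bases before to 50 bases after the gene start, from RefSeq on GRCm38.p6, and 12705 of the tested genes matched by symbol, with 1 window per gene. An HNF4-type motif (CAAAGTCCA, either strand) lay in 27 of 1731 windows of genes called higher, or 1.56%, in 2 of 1528 of genes called lower, or 0.131%, and in 0.504% of all 12705 windows. A GATA-type motif (AGATAA) lay in 10.6% of windows of higher genes, 5.82% of lower genes and 7.28% of all. A CDX-type motif (TTTATNG) lay in 10.8%, 6.22% and 7.72%, and the TATA box (TATAAA) in 13.7%, 7.33% and 8.63%, in the same order. The CDX-type and TATA letters can overlap within a window. These shares are descriptions, and a match is not a bound site. List members called higher with an average log2 CPM of at least 2 were searched for the HNF4-type motif, with 1 chromosome left out. The search gave Slc3a1 and Alpi and need not be complete. Their windows are shown here 5′ to 3′ in the sense of the gene with the motif in capitals.
Slc3a1 (GRCm38.p6, chr17:85028097-85028396, plus strand): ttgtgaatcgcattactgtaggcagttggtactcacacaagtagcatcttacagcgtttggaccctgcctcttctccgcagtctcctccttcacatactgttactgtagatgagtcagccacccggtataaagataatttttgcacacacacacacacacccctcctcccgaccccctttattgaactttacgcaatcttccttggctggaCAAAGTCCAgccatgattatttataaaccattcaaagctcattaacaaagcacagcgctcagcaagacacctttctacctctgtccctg
Alpi (GRCm38.p6, chr1:87101557-87101856, minus strand): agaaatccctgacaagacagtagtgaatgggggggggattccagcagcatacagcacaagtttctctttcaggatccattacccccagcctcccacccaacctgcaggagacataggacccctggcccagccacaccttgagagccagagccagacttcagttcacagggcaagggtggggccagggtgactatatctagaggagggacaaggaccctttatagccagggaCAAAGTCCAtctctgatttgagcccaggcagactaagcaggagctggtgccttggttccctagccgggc
The motif begins 39 bases before the gene start in Slc3a1 and 19 bases before it in Alpi, and both genes were below 8 CPM at E14 and above 134 CPM in both E16 libraries.

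The fetal and suckling gut takes up whole proteins and breaks them down in lysosomes, and many genes of this route were called higher. Of 25 tested, 16 were called higher and 1 lower (median 1.63), against 13.7% and 11.9% over all genes. Fcgrt, the receptor that carries milk antibodies across the epithelium, was at 14.8 and 11.2 CPM at E14 and 497 and 460.2 CPM at E16 (log2 fold change 5.19 ± 0.83 (SE), adjusted p = 6.58e-05). Amn, part of the cubilin receptor complex, was at 35.4 and 29.3 CPM at E14 and 245 and 235 CPM at E16, but its call was lost when any 1 of the 4 libraries was left out. Its partners Cubn and Lrp2 were not called (1.24 and 1.21). Both were called higher with only the groups compared, and Cubn also in WT libraries alone (1.33) and with the replicate block (1.24). The lysosomal enzyme genes Glb1 (2.86 ± 0.19) and Ctsb, at 388 and 382 CPM at E14 and 1274 and 1196 CPM at E16, were called higher. Ass1, an arginine-synthesis enzyme of the suckling gut, was at 4.31 and 4.73 CPM at E14 and 133 and 117 CPM at E16. Prdm1, the repressor known to hold back the adult enterocyte program, was the 1 member called lower, at 163 and 173 CPM at E14 and 89.4 and 70.5 CPM at E16. RLE scaling and DESeq2 ended this call with a log2 fold change of -0.92, as did WT libraries alone and leaving out the second E16 library.

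Goblet cell genes showed the highest median of all lists. Of 19 tested, 17 were called higher and 0 lower, against 13.7% and 11.9% over all genes, with a median log2 fold change of 5.15. Muc2, the gel-forming mucin, was at 0.177 and 0.276 CPM at E14 and 32.1 and 23.9 CPM at E16 (log2 fold change 7.05 ± 0.90 (SE), adjusted p = 5.18e-06). Clca3, a secreted protein of mucus, was at 0.953 and 1.1 CPM at E14 and 824 and 681 CPM at E16, and Fcgbp, which is bound into mucus, at 28.9 and 38.9 CPM at E14 and 1325 and 1072 CPM at E16. Agr2, needed for mucin folding, was at 5.39 and 4.22 CPM at E14 and 489 and 446 CPM at E16, and the trefoil peptide Tff3 at 17.1 and 14.6 CPM at E14 and 649 and 609 CPM at E16. In all of these the E16 libraries lay above the E14 libraries without overlap. Of the lineage factors on the list, Spdef was at 9.73 and 7.69 CPM at E14 and 23.7 and 23.3 CPM at E16 (1.43 ± 0.38), not called without the second E14 library, and Foxa3, not called, at 43.6 and 46.8 CPM at E14 and 29.9 and 30.8 CPM at E16. Further secreted products outside the lists were chosen after their values were seen. Retnlb had 0 counts at E14 and 125 and 132 CPM at E16, Mptx1 was at 0.177 and 0.316 CPM at E14 and 384 and 382 CPM at E16, and both were near absent in the libraries labelled E18, at 0.0822 and 0.11 and 3.45 and 3.68 CPM. The pancreatic-type elastases Cela2a and Cela3b stood at 114 and 104 and 52.6 and 62 CPM at E16 against 0 and 0.0394 and 0.0544 and 0.0394 CPM at E14, with 277 and 329.6 CPM of Cela2a in E16 hindstomach. The list of pancreas and liver markers did not go this way: 1 of 12 was called higher and 3 lower, or 1 lower without the second E16 library, 9 had a negative value (median -0.68), and the list summed to 0.0637% and 0.0585% of counts at E14 and 0.0475% and 0.0409% at E16.

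**Figure D2:**
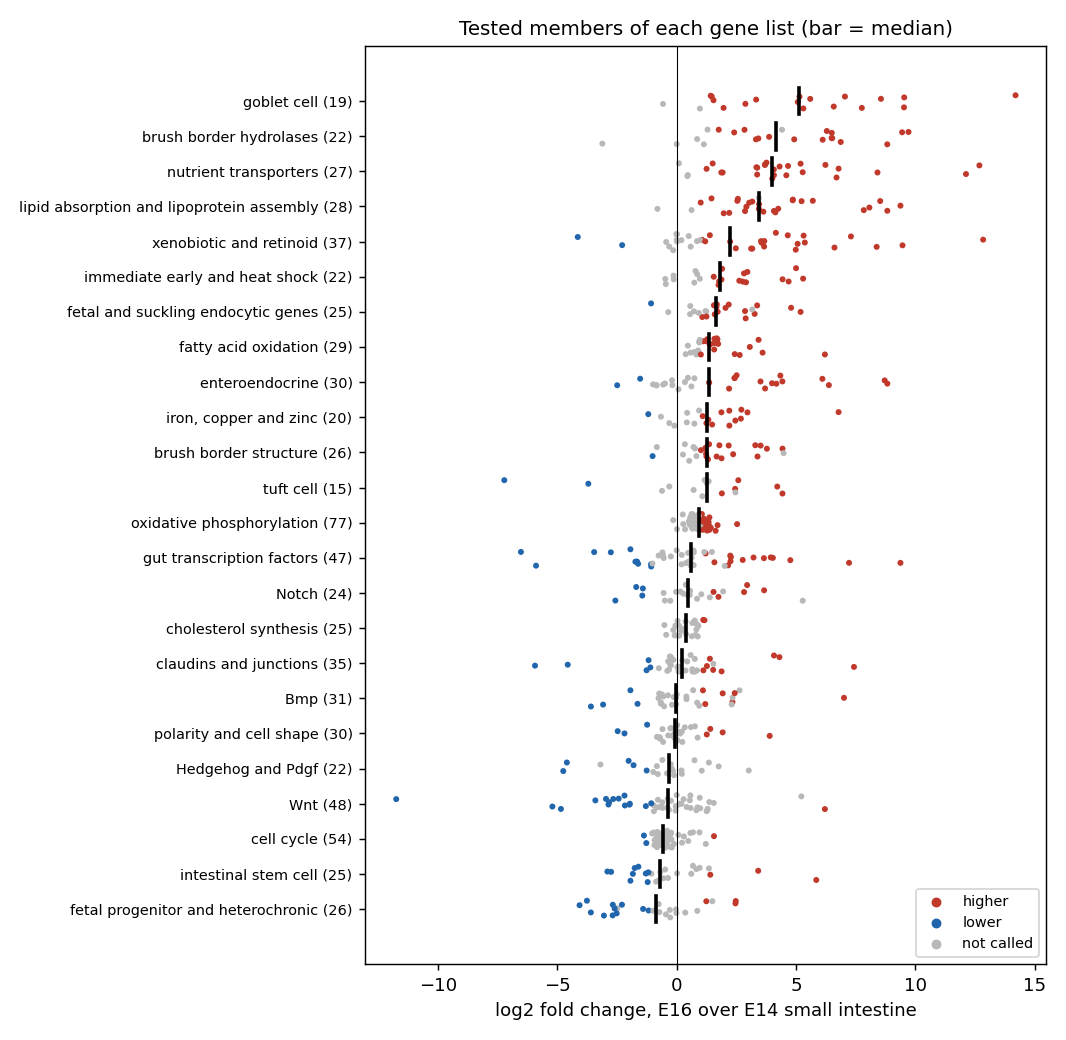
Each point is a tested member of a gene list, placed by its log2 fold change of E16 over E14 small intestine; the number of members stands in brackets and the black bar is the median. The goblet, hydrolase, transporter and lipid lists have medians between 3.45 and 5.15, while the stem cell and fetal progenitor lists have medians of -0.68 and -0.87.

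Enteroendocrine genes were called higher in part, among them several hormone genes but not Gcg or Pyy. Of 30 enteroendocrine genes tested, 15 were called higher and 2 lower, against 13.7% and 11.9% of all genes. Sst, which encodes somatostatin, was at 0.0816 and 0 CPM at E14 and 28.3 and 29.6 CPM at E16, Cck at 5.02 and 4.42 CPM at E14 and 90.0 and 103 CPM at E16 and Sct at 13.6 and 10.8 CPM at E14 and 206 and 186 CPM at E16. Gip, Ghrl, Tac1 and Nts were also called higher, as was Tph1, the first enzyme of serotonin synthesis (6.38 ± 1.09). Gcg and Pyy were present at both days and not called: Gcg was at 61.3 and 54.9 CPM at E14 and 41.2 and 41.7 CPM at E16 and Pyy at 16.5 and 15.3 CPM at E14 and 20.3 and 20.1 CPM at E16. Neurog3, the factor that starts the lineage, was at 19.1 and 13.8 CPM at E14 and 11.3 and 7.04 CPM at E16 (log2 fold change -0.85 ± 0.53, adjusted p = 0.214), and Neurod1 at 6.84 and 5.96 CPM at E14 and 8.2 and 11.5 CPM at E16, not called. Lmx1a was the transcription factor of the list called higher, at 0.15 and 0.118 CPM at E14 and 2.21 and 3.88 CPM at E16, and it lost that call without either E14 library. The 2 members called lower were transcription factors, Rfx6, at 34.3 and 34.8 CPM at E14 and 6.09 and 6.17 CPM at E16, and Mnx1, at 9.72 and 9.11 CPM at E14 and 2.92 and 3.6 CPM at E16. Of 15 tuft cell genes tested, 5 were called higher and 2 lower, at low levels, the lower count being near the share over all genes. Without the second E14 library 1 was called higher, and without the first E14 or the second E16 library 2 were. Pou2f3, the lineage factor of tuft cells, was called lower at 4.22 and 3.39 CPM at E14 and 0.302 and 0.273 CPM at E16, a call that was lost without any 1 of the 4 libraries, under RLE scaling, in WT libraries alone and with the replicate block. The number called lower was 1 in each of these, except 0 without the first or the second E16 library.

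Among the epithelial signals to the mesenchyme, Shh fell steeply while Ihh was not called. Shh was at 176 and 213 CPM at E14 and 6.09 and 9.94 CPM at E16, with no overlap between days (log2 fold change -4.60 ± 0.31 (SE), adjusted p = 1.51e-09). Ihh was at 169.6 and 171 CPM at E14 and 159 and 156 CPM at E16, with a log2 fold change of -0.11 ± 0.18 (adjusted p = 0.64) whose sign turned under RLE scaling, to 0.04. Pdgfc, a ligand of the Pdgfra receptor, was at 139 and 143 CPM at E14 and 3.37 and 7.1 CPM at E16 (log2 fold change -4.75 ± 0.35 (SE), adjusted p = 5.53e-09), and Pdgfa, at 45.2 and 39.1 CPM at E14 and 29.7 and 25.9 CPM at E16, was not called (-0.60 ± 0.22). Smo, which passes on the Hedgehog signal, was called lower (-1.26 ± 0.16), as were Gas1 and Gli3, while Ptch1, a target and receptor, was at 18.5 and 19 CPM at E14 and 17.1 and 11.2 CPM at E16 and not called. In all, 5 of 22 genes tested were called lower and none higher by edgeR's quasi-likelihood test, against 11.9% lower over all genes. When only the groups compared were fitted, 4 were called higher.

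Part of the Wnt pathway genes, receptors among them, were called lower. Of 48 tested, 15 were called lower and 1 higher, with a median of -0.35, or -0.29 with genes at 0 in a whole group set to their bound, against 11.9% lower and 13.7% higher over all genes. The number called higher was 2 under DESeq2 and 3 with only the groups compared. The receptors Fzd2, Fzd3, Fzd6, Fzd7 and Fzd10 were all called lower: Fzd2 was at 36 and 31.7 CPM at E14 and 3.82 and 5.51 CPM at E16 and Fzd7 at 55.1 and 62.4 CPM at E14 and 15.6 and 14.1 CPM at E16. Fzd5, at 26.2 and 19.5 CPM at E14 and 12.9 and 13.7 CPM at E16, and Fzd8, at 27.4 and 30.2 CPM at E14 and 25.8 and 30.2 CPM at E16, were not called, and the sign of Fzd8 turned under RLE scaling (0.12). The secreted antagonist Sfrp5 was at 223 and 224 CPM at E14 and 39.1 and 43.7 CPM at E16 (log2 fold change -2.43 ± 0.31 (SE), adjusted p = 4.33e-06), and the transcription factor Tcf7l1, a repressor of Wnt targets, at 50.9 and 44.2 CPM at E14 and 7.7 and 7.37 CPM at E16. The planar polarity genes Vangl2 and Celsr1 had log2 fold changes of -2.19 ± 0.31 and -2.17 ± 0.28. Wnt3, a ligand known from crypt base cells, was the 1 gene called higher, with 3 counts in all at E14 and 1.96 and 2.73 CPM at E16, a ratio of 76.8 (95% counting interval 25.4 to 379). It lost its call without either E14 library. The Wnt target Axin2 was at 5.14 and 6.67 CPM at E14 and 3.07 and 2.57 CPM at E16 and was not called. It was called lower with only the groups compared (-1.02) and with the replicate block (-1.05).

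Bmp and Notch genes were called in both directions. Of 31 Bmp genes tested, 6 were called higher and 4 lower, and of 24 Notch genes 5 higher and 4 lower, counts to be read against 13.7% higher and 11.9% lower over all genes. Id2, a target of Bmp signals and the most abundant of its family at E14, was at 631 and 546 CPM at E14 and 140.1 and 167 CPM at E16 (log2 fold change -1.94 ± 0.15 (SE), adjusted p = 1.20e-08), while Id3, at 33.4 and 29.5 CPM at E14 and 65 and 70.0 CPM at E16, and Id4, at 2.23 and 1.85 CPM at E14 and 11.4 and 11 CPM at E16, were called higher, Id3 not without either E14 library or the second E16 library. The ligands Bmp3 (2.34 ± 0.86) and Bmp4 (1.93 ± 0.61) were called higher, Bmp3 not without any 1 of the 4 libraries and Bmp4 not without either E14 library or the second E16 library, while Bmp2 and Bmp7 were not called (0.41 and 0.69). The receptors Notch1, Notch2 and Notch3 were called lower, with log2 fold changes of -1.44 ± 0.22, -1.42 ± 0.36 and -2.57 ± 0.32. Their target Hes1, which holds cells out of the secretory lineage, was at 152 and 164 CPM at E14 and 45.2 and 52.4 CPM at E16 (log2 fold change -1.70 ± 0.32 (SE), adjusted p = 3.40e-04). The ligands Dll1, at 9.7 and 13.1 CPM at E14 and 40.4 and 36.2 CPM at E16, and Dll4, at 3.29 and 3.9 CPM at E14 and 14.4 and 6.5 CPM at E16, were called higher, as was Nrarp, at 5.61 and 5.84 CPM at E14 and 40.8 and 47.9 CPM at E16; Dll4 lost its call without the first E14 or the first E16 library. Atoh1, the secretory lineage factor, was at 0.626 and 0.789 CPM at E14 and 5.99 and 12 CPM at E16, but its call was lost without either E14 library or the second E16 library and in WT libraries alone. The number called higher was 2 or 3 on the Notch list without either E14 library or the first E16 library, and 3 on the Bmp list without either E14 library or the second E16 library.

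**Figure D3:**
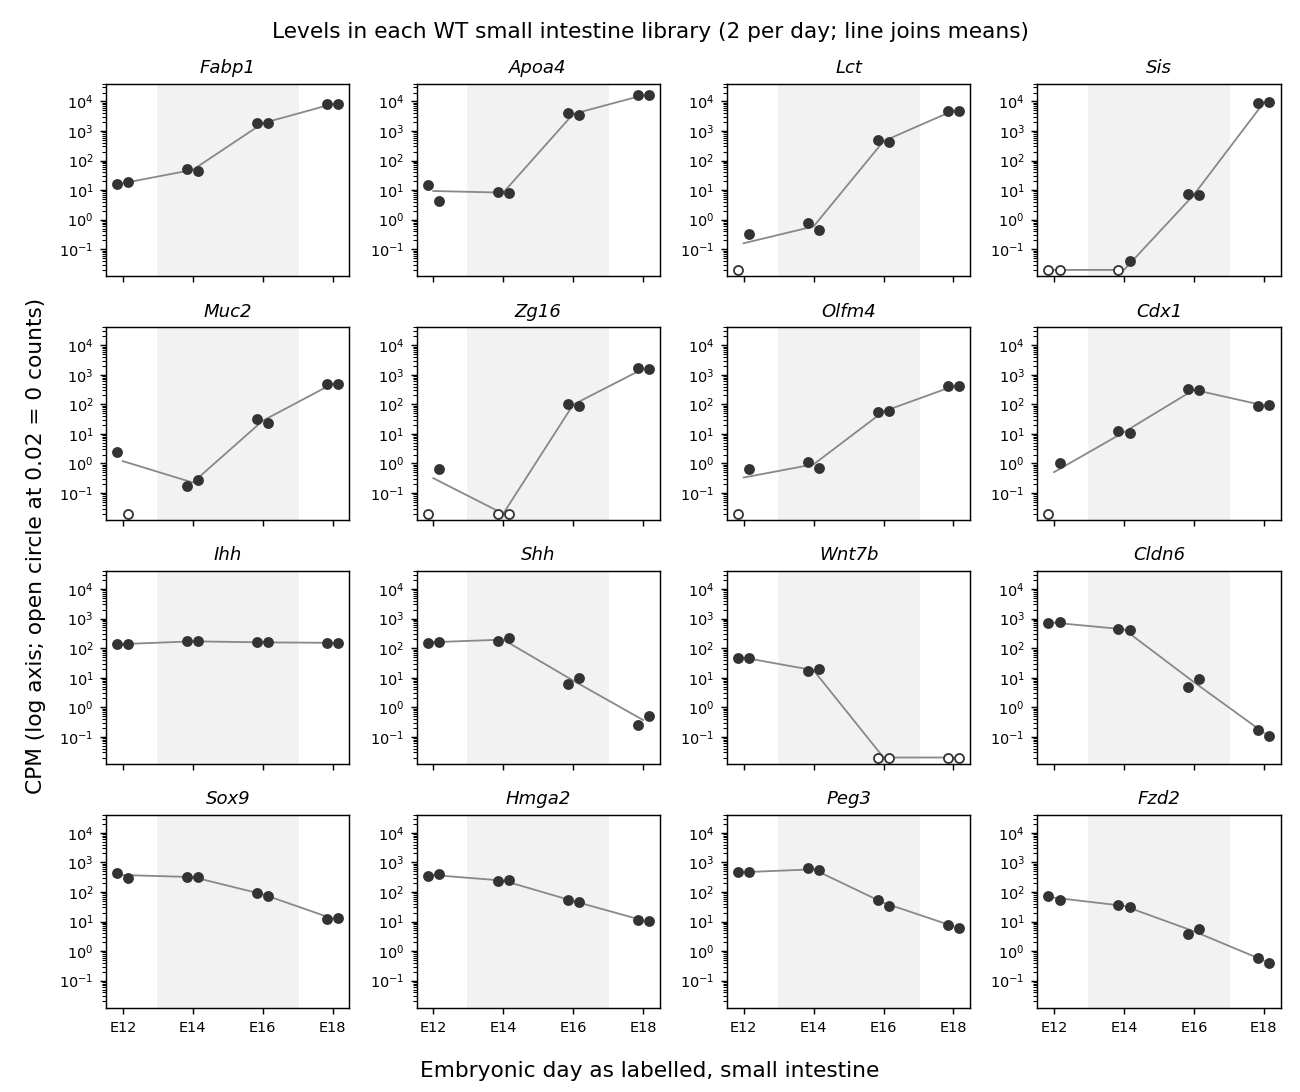
CPM on a log axis in each WT small intestine library by labelled day, 2 points per day, with a line through the means; open circles mark 0 counts and the shaded band the E14 and E16 libraries. Fabp1, Apoa4, Lct, Muc2 and Zg16 rise across the band, Shh, Wnt7b, Cldn6, Sox9, Hmga2, Peg3 and Fzd2 fall across it, and Ihh stays between 136 and 171 CPM from E12 to E18.

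Progenitor and stem cell genes fell in part. Of 25 stem cell genes tested, 9 were called lower and 3 higher (median -0.68), against 11.9% lower and 13.7% higher over all genes. Sox9, a factor of progenitors, was at 327 and 311 CPM at E14 and 93.2 and 73.3 CPM at E16 (log2 fold change -1.94 ± 0.17 (SE), adjusted p = 3.55e-08). Lgr4, a receptor for R-spondins, was at 285 and 340.5 CPM at E14 and 88 and 96.7 CPM at E16, and the R-spondin targets Rnf43 and Znrf3 had log2 fold changes of -1.22 ± 0.21 and -1.29 ± 0.32, the former below the fold minimum without the first E16 library (-0.96). Lgr5, the defining marker of the adult stem cell, was at 29.9 and 32.4 CPM at E14 and 37.6 and 25.3 CPM at E16, with overlapping groups (0.02 ± 0.32, adjusted p = 0.991). The value turned negative without the first E14 library (-0.05) or the first E16 library (-0.31). Olfm4, another marker of adult crypt base cells, was at 1.16 and 0.71 CPM at E14 and 56 and 59.4 CPM at E16 (log2 fold change 5.85 ± 0.40 (SE), adjusted p = 2.18e-09). The number of the list called higher was 5 under DESeq2, in WT libraries alone and with only the groups compared.

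Genes of the fetal growth program fell in part too. Of 26 tested, 11 were called lower and 3 higher (median -0.87), to be set against the same shares of 11.9% and 13.7%. Hmga2, a chromatin protein of fetal growth, was at 233 and 252 CPM at E14 and 52 and 46.8 CPM at E16, and the growth regulator Mycn had a log2 fold change of -2.51 ± 0.25. Igf2bp1, an RNA-binding protein of fetal tissue, was at 177 and 180.1 CPM at E14 and 32 and 26.8 CPM at E16 (log2 fold change -2.60 ± 0.28 (SE), adjusted p = 7.97e-07), and its relatives Igf2bp2 and Igf2bp3 were not called (-0.73 and -0.75). Sox11 was at 139.5 and 112 CPM at E14 and 7.4 and 7.59 CPM at E16 (-4.07 ± 0.19). The imprinted genes did not move together. Peg3 was at 632 and 532 CPM at E14 and 52.4 and 33.4 CPM at E16 and Dlk1 at 300.1 and 289 CPM at E14 and 36.4 and 34.7 CPM at E16, both called lower. Cdkn1c, a brake on the cell cycle, was at 245 and 225 CPM at E14 and 1335 and 1283 CPM at E16 and called higher, and H19, at 1386 and 1010.1 CPM at E14 and 1041 and 923 CPM at E16, was not called. Igf2, at 967 and 399 CPM at E14 and 901 and 851 CPM at E16, was not called either, and its 2 E14 libraries differed by more than the days did; without the first of them Igf2 was called higher (1.13). The timing factor Lin28b was at 6.03 and 4.93 CPM at E14 and 1.56 and 0.382 CPM at E16 and missed the call (-2.48 ± 1.28, adjusted p = 0.133), which it passed with only the groups compared (-2.44).

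Most cell cycle genes had small negative changes, below the fold minimum. Of 54 tested, 2 were called lower and 1 higher, against 11.9% lower over all genes. On the adjusted p alone 34 were lower, against 21.2% over all genes, and 45 had a negative value (median -0.56). Mki67, the proliferation marker, was at 119.8 and 85 CPM at E14 and 70.2 and 65.6 CPM at E16 (log2 fold change -0.59 ± 0.19 (SE), adjusted p = 0.0188). Mcm7, part of the replication helicase, was at 317 and 327 CPM at E14 and 166 and 189.9 CPM at E16, and Top2a at 258 and 257 CPM at E14 and 148 and 144 CPM at E16, each lower in both E16 libraries than in both E14 libraries. Leaving out the second E14 or the first E16 library gave 5 called lower.

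Among the regulators of intestinal identity, close relatives differed in whether they were called. Of 47 gut transcription factors tested, 14 were called higher and 11 lower, against 13.7% and 11.9% over all genes. Cdx2, the factor that sets intestinal identity, was at 123 and 152 CPM at E14 and 196 and 218 CPM at E16 (0.59 ± 0.28, adjusted p = 0.101), whereas its relative Cdx1 was at 12.1 and 10.8 CPM at E14 and 324 and 299 CPM at E16 (log2 fold change 4.76 ± 0.60 (SE), adjusted p = 5.87e-06). Hnf4a was at 219 and 262 CPM at E14 and 389 and 349 CPM at E16 (0.62 ± 0.34, adjusted p = 0.157), whereas its relative Hnf4g was at 68 and 64 CPM at E14 and 296 and 293 CPM at E16 (log2 fold change 2.16 ± 0.32 (SE), adjusted p = 2.46e-05). Gata4, at 251 and 277 CPM at E14 and 215 and 230.1 CPM at E16, was not called. The genes called higher included nuclear receptors: Nr1h4, the bile acid receptor, was at 13.8 and 13.6 CPM at E14 and 176 and 169 CPM at E16, Vdr, the vitamin D receptor, at 1.93 and 2.29 CPM at E14 and 21.4 and 17.4 CPM at E16, and Ppara and Esrra had log2 fold changes of 2.26 ± 0.44 and 2.25 ± 0.29. The early endodermal factors Foxa1 and Foxa2 were called lower, with Foxa1 at 252 and 276 CPM at E14 and 82.3 and 84 CPM at E16 and Foxa2 at 22.1 and 19.3 CPM at E14 and 2.16 and 1.58 CPM at E16. Onecut1 and Tox3 also fell, as did Pdx1, whose call was lost without the first E16 library and in WT libraries alone.

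Junction and polarity genes were called in both directions, 8 higher and 5 lower of 35 junction genes and 4 higher and 3 lower of 30 polarity genes, against 13.7% higher and 11.9% lower over all genes. Cldn6, a claudin of embryonic epithelia, was at 448 and 420.1 CPM at E14 and 4.98 and 9.23 CPM at E16 (log2 fold change -5.94 ± 0.29 (SE), adjusted p = 4.53e-11). Cldn15, a pore-forming claudin of the villus, was at 0.408 and 0.237 CPM at E14 and 64.6 and 59.9 CPM at E16, and Cldn2, another pore former, at 16.4 and 19.1 CPM at E14 and 301 and 298 CPM at E16. Cdh3, the placental cadherin, fell to 1.86 and 2.02 CPM from 45.6 and 46.5 CPM, while Cdh1, the epithelial cadherin, was at 527 and 615 CPM at E14 and 778 and 699 CPM at E16 and not called. The nonmuscle myosin heavy chains went opposite ways: Myh14 was at 22.8 and 27 CPM at E14 and 379 and 362 CPM at E16, Myh10 at 109 and 115 CPM at E14 and 24.4 and 15.9 CPM at E16, and Myh9, at 185 and 185 CPM at E14 and 156 and 160.1 CPM at E16, was not called. Without the first E14 library 5 junction genes were called higher and 3 lower, and without the second E16 library 2 were called lower.

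Most enzymes that handle drugs and retinoids were called higher. Of 37 tested, 22 were called higher and 2 lower, beside 13.7% and 11.9% of all genes, and 4 had 0 counts at both days, Cyp3a11, Cyp3a25, Cyp2c29 and Cyp2b10. Ces2e, a carboxylesterase, had 2 counts in all at E14 and 190.4 and 182 CPM at E16, a ratio of 9202 (95% counting interval 2546 to 75995). Adh1, which oxidizes retinol, was at 12.3 and 9.7 CPM at E14 and 375 and 367 CPM at E16, and Aldh1a1, which makes retinoic acid, at 7.19 and 6.55 CPM at E14 and 131 and 116 CPM at E16. Cyp26b1, which breaks retinoic acid down, and the receptor Rarb were the members called lower, with Rarb at 17.8 and 15.3 CPM at E14 and 1.86 and 4.97 CPM at E16.

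Marker RNA of several other cell types rose between the days as well. The counts that follow stand against 13.7% called higher and 11.9% lower over all genes. Mesenchyme and muscle markers summed to 0.0492% and 0.0561% of counts at E14 and 0.191% and 0.211% at E16, and 12 of 19 were called higher and none lower. The collagen gene Col3a1 was at 96 and 135 CPM at E14 and 569 and 648 CPM at E16, a call lost without the first E14 library, whereas Pdgfra was at 8.98 and 8.95 CPM at E14 and 7.09 and 9.01 CPM at E16 and not called, and Twist1 had 0 counts at E16. Immune markers summed to 0.0113% and 0.0115% at E14 and 0.0320% and 0.0316% at E16, with 5 of 10 called higher, 2 or 3 without either E14 library or the first E16 library, and 9 with only the groups compared. Endothelial markers stayed below 0.006% of counts, with 6 of 8 called higher, and 1, 2 and 3 without the first E14, the second E14 and the second E16 library. Neural markers had 5 of 10 called higher, and 2 or 3 without any 1 of the 4 libraries. None was called lower, but 1 was under DESeq2 and with only the groups compared, and 2 without the second E16 library. Mesothelial markers summed to 0.00352% and 0.00381% at E14 and 0.00794% and 0.00744% at E16, but had 1 of 6 called higher, Upk3b, and a negative log2 fold change in the other 5 (median -1.35). That 1 call was lost under DESeq2 and without any 1 of the 4 libraries. No mesothelial marker was called lower, but 2 of 5 tested were with only the groups compared and 1 with the replicate block. Erythroid genes split: Alas2 was at 2.15 and 2.09 CPM at E14 and 164 and 165 CPM at E16 and the embryonic globin Hbb-y at 45.1 and 39 CPM at E14 and 5.94 and 3.88 CPM at E16. Gastric and squamous markers summed to 0.00253% and 0.00227% of counts at E14 and 0.00110% and 0.00114% at E16. Of 17 tested, 3 were called higher and 4 lower, and 0 and 2 without the first E14 library. The number called higher was 0 with only the groups compared or when thinned, 1 without the first E16 library and 5 under DESeq2. Among them Gkn2 and Muc5ac were below 1.1 CPM in all 4 libraries. The epithelial list summed to 0.589% and 0.563% of counts at E14 and 1.09% and 1.07% at E16, and of its 10 members 4 were called higher and 1 lower. The keratin gene Krt8, at 779 and 761 CPM at E14 and 3516 and 3297 CPM at E16, was called higher. Esrp1, an epithelial splicing factor, was at 116 and 125 CPM at E14 and 56.7 and 55.7 CPM at E16 and was the member called lower, a call that RLE scaling and DESeq2 ended (-0.94), while Epcam was not called. Of 22 immediate early and heat shock genes, which cell dissociation is known to induce, 14 were called higher and none lower, and the list summed to 0.644% and 0.623% of counts at E14 and 1.45% and 1.46% at E16. Fos was at 270.1 and 250.1 CPM at E14 and 1557 and 1652 CPM at E16 and Atf3 at 41.9 and 36 CPM at E14 and 858 and 835 CPM at E16. The part of these cells and of handling in the other differences was not tested. In such bulk samples, fewer cells of a type and less RNA per cell cannot be told apart.

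**Figure D4:**
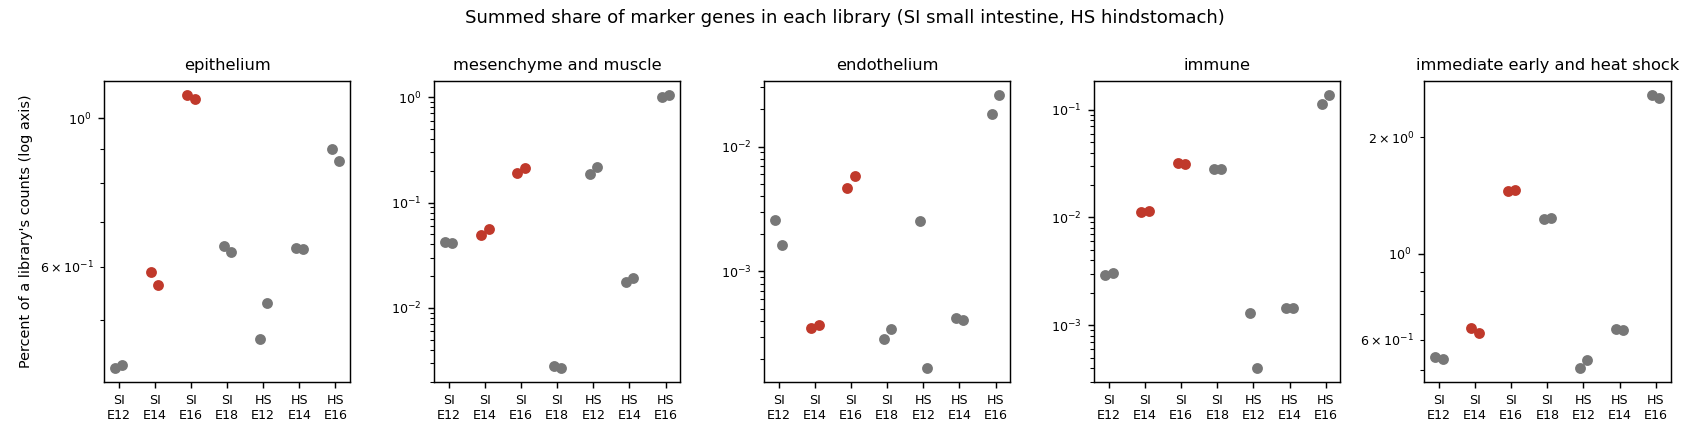
Summed share of each marker list in percent of a library's counts, on log axes with different ranges, for small intestine (SI) and hindstomach (HS) libraries by labelled day, 2 points per group. The E14 and E16 small intestine libraries are red; mesenchyme and muscle genes go from about 0.05% to 0.2% in them and to 1.01% and 1.05% in E16 hindstomach.

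The change of the small intestine was then set against that of the hindstomach over the same 2 days, as an interaction in the same fit. The difference in change was called above 0 for 675 genes (3.92%) and below 0 for 1580 (9.17%). Several enterocyte lists had more members above than below: 16 of 29 fatty acid oxidation genes, 15 of 28 lipid absorption genes, 11 of 22 hydrolases and 12 of 26 brush border structure genes were called above, and 9 of 27 nutrient transporters. Called below were 2 of the lipid absorption and 1 of the brush border structure genes, and none of the other 3 lists. Lct was at 0.459 and 0.338 CPM at E14 and 11.9 and 9.4 CPM at E16 in hindstomach, and the interaction was 4.73 ± 0.77 (SE), adjusted p = 3.07e-04. Lct thus appears in E16 hindstomach libraries too, at far lower levels than in small intestine. For Apoa4, at 1.2 and 1.09 CPM at E14 and 125 and 113 CPM at E16 in hindstomach, the difference was not called (2.13), and the same holds for Fabp1 (-1.78). Of the 19 goblet cell genes, 7 were called above, Muc2 among them (5.37 ± 1.32 (SE), adjusted p = 0.0082). Of the 77 oxidative phosphorylation genes 4 were called above.

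For part of the signalling lists the change of the small intestine lay below that of the hindstomach. The difference was called below 0 for 15 of 48 Wnt genes and 6 of 22 Hedgehog and Pdgf genes. Shh was at 42.8 and 51.7 CPM at E14 and 12.6 and 13 CPM at E16 in hindstomach (interaction -2.72 ± 0.39 (SE), adjusted p = 7.22e-05), and Pdgfc at 38.6 and 37.3 CPM at E14 and 14.4 and 21.7 CPM at E16 (interaction -3.69 ± 0.44 (SE), adjusted p = 1.11e-05). In some of these the level rose in hindstomach: Sfrp2 was at 3.07 and 3.46 CPM at E14 and 83.3 and 82 CPM at E16 there. The mesenchyme and muscle markers rose far more in hindstomach, with 18 of 19 called below, and their part in those counts was not tested. Cldn6 was at 488 and 548 CPM at E14 and 65.4 and 59.9 CPM at E16 in hindstomach (interaction -2.89 ± 0.34 (SE), adjusted p = 8.80e-06). Of the cell cycle genes, 3 of 54 were called above and none below. Against the forestomach 1959 genes were called above and 2422 below.

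**Figure D5:**
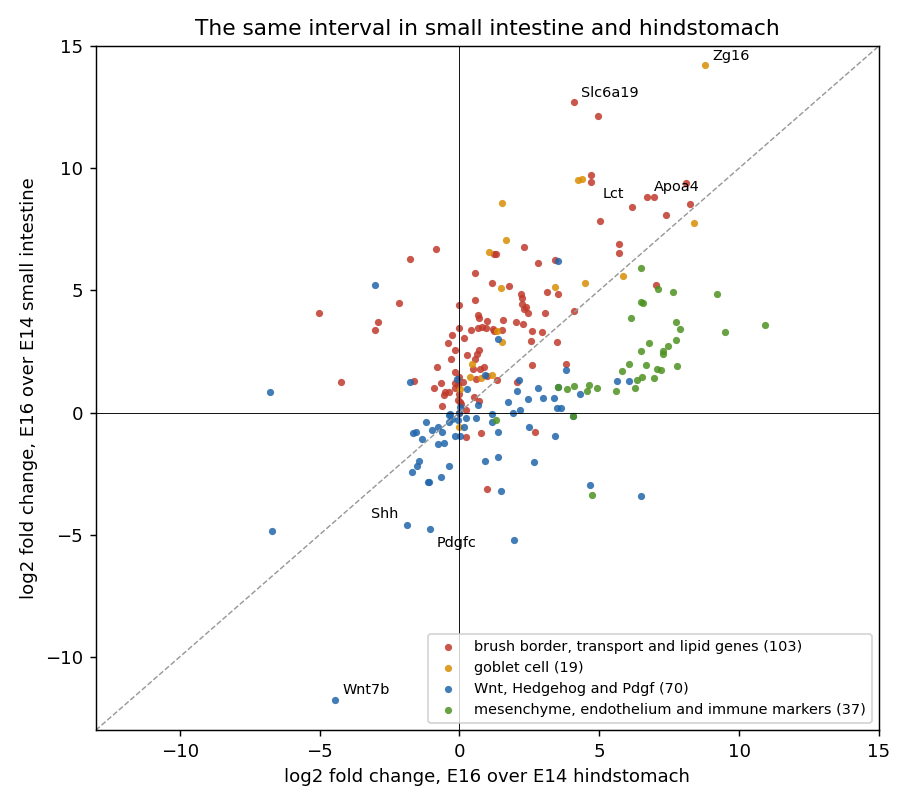
Each point is a tested list member, with its log2 fold change of E16 over E14 in hindstomach on the x axis and in small intestine on the y axis; the dashed line marks equal change. Lct and Slc6a19 lie well above the line, and 18 of the 19 mesenchyme and muscle markers were called below it.

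The days before and after place these changes in time, with each interval sharing libraries with the next. The E12 libraries were labelled midgut and sorted on Epcam as well. The libraries labelled E18 came from villi freed with EDTA, without the sort, and stand apart from the other embryonic libraries. They held 9169 and 9281 CPM of Sis and 1421 and 1406 CPM of Treh, genes known to rise around weaning, and 2.3 and 1.87 CPM of Igf2 and 0.164 and 0.0549 CPM of H19, both abundant at E14 and E16. Between E12 and E14, 1952 genes were called higher and 843 lower, and between E16 and the libraries labelled E18, 3458 and 3802. The 2795 calls of the earlier interval became 214, of which 58.4% were higher, with only its own groups fitted, and 1762, of which 80.4% were higher, without the second E14 library, against 69.8% here. Fabp1 was at 15.8 and 18.5 CPM at E12 and 8281 and 8144 CPM in the libraries labelled E18. Apoa4 was at 14.4 and 4.3 CPM at E12, a difference from E14 that was not called, and at 16072 and 16381 CPM in those labelled E18. Lgr5 was at 1.29 and 1.43 CPM at E12, so that its increase fell in the earlier interval (4.51, called higher). Cdx1 was at 0 and 1.02 CPM at E12 and 91.3 and 92.4 CPM in the libraries labelled E18, highest at E16. Fcgrt and Ass1 also had their highest levels at E16, with 144 and 142 and 2.47 and 2.36 CPM in the libraries labelled E18. Shh was at 153 and 166 CPM and Cldn6 at 693 and 755 CPM at E12, and neither difference from E14 was called. Over all 17239 genes tested, 843 were called lower between E12 and E14 and 3802 between E16 and the libraries labelled E18. Against these, the numbers were 1 and 38 of the 54 cell cycle genes and 2 and 21 of the 26 fetal progenitor genes.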

How the data were processed

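Per the labels' protocols, RNA was amplified with the SMARTer v4 kit and read as single ends. The submitters' processing notes name STAR 2.5.3a, HTSeq, Bowtie2, MACS2 and the mm9 build for the series; strand setting and annotation are not given in the sources used here. Reads of overlapping or antisense genes can therefore not be told apart. The authors deposited 1 table of raw read counts for 24015 genes. Of its columns, 6 were not used: 4 of adult ileum and 2 that match no sample. The used columns were checked for shifted rows in 48 windows of 500 rows per library, and none matched better when shifted.

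Counts of 27 libraries in 13 groups (20 WT, 7 Cdx2-/-) were filtered (filterByExpr, minimum count 10), scaled by TMM and fitted with edgeR 4.0.16 (R 4.3.3) with group as the only term and 14 residual degrees of freedom. P-values were adjusted over all 17239 genes. SE is the log2 fold change divided by the root of F. DESeq2 1.42.0, RLE, other filters and sample sets, thinning and leaving out libraries were tried as alternatives.

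The lists and members were chosen with earlier results of these data known. Genes are named by rule: the 10 with the largest change per direction (average log2 CPM of at least 2, groups not overlapping), the largest called and most abundant uncalled members of each list, and 20 chosen regardless of result; the other genes named were chosen after their values were seen. The scripts were tested on simulated data. Replicates within a group differed beyond sampling noise (chi-square per degree of freedom 36.9 at E14 and 9.39 at E16), so none was counted as a duplicate. Intervals and floors cover counting error only.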

Additional observations from a re-analysis of the deposited data

Results flagged for a closer look

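The change from E14 to E16 differed between organs, by a test of the difference itself (edgeR interaction), for 2255 genes between small intestine and hindstomach and for 4381 between small intestine and forestomach. The genes with the largest differences from the hindstomach, among those of average log2 CPM of at least 2, were Slc2a7 (11.53), Abcg8 (9.11), Mfi2 (8.99), Ms4a8a (8.80) and Slc6a19 (8.61) above 0 on the log2 scale. Those below 0 were Ltf (-12.75), Gpr133 (-12.41), Hbb-bh1 (-11.70), Trpm5 (-11.60) and Igfbp6 (-10.51). Mfi2, an iron-binding surface protein, was at 0.748 and 0.473 CPM at E14 and 406 and 365 CPM at E16 in small intestine and at 0.423 and 0.752 CPM at E14 and 1.11 and 0.261 CPM at E16 in hindstomach, with 0 and 0.0549 CPM in the libraries labelled E18. Ms4a8a was at 0.272 and 0.197 CPM at E14 and 26.9 and 21.1 CPM at E16 in small intestine and fell in hindstomach, at 18.9 and 17.1 CPM at E14 and 3.82 and 3.78 CPM at E16. Ltf, lactoferrin, was at 0.694 and 0.434 CPM at E14 and 2.31 and 3.93 CPM at E16 in small intestine and went from 0 counts to 163 and 204 CPM in hindstomach. Trpm5, a channel of tuft cells, was at 0.585 and 0.986 CPM at E14 and 0 and 0 CPM at E16 in small intestine and at 1.02 and 0.564 CPM at E14 and 16.5 and 16.6 CPM at E16 in hindstomach. Gpr133 and Igfbp6 had under 0.3 CPM in all 4 small intestine libraries, where the fitted log2 fold changes were -3.66 (not called) and -5.33 (called lower), and rose in hindstomach, with log2 fold changes of 8.75 and 5.18. The small intestine call of Igfbp6 was lost in WT libraries alone, when thinned, and without the first E14 or either E16 library. Several of these fits involve a group at or near 0 counts, so the sizes depend on the prior count and are no bounds.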

How the results depend on the processing

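The count for E16 against E14 lay between 4198 and 5014 genes under other scalings, tests, filters, depths and sample sets, against 4415, and at 3382 to 3765 when 1 library was left out. Without the libraries labelled E18, an alternative chosen after seeing the data, it was 4229. With no fold minimum it was 7029, of which 3663 were lower. The difference from the hindstomach was called for 3813 genes when only the groups compared were fitted. E14 against E12 gave 2795 genes, 214 with only its own groups, 5159 with no fold minimum and 1762 to 2290 without 1 of the E14 libraries; the causes were not tested.

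With the replicate block the counts were 4434 for E16 against E14 (2366 higher and 2068 lower), 2417 and 4454 for the differences from hindstomach and forestomach, 2841 for E14 against E12 and 7254 for E18 against E16. The deviations of same-numbered E14 and E16 libraries correlated at 0.02 over 1 pair of groups, so the numbers do not establish a pairing.

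Of 357 genes recomputed, 254 belong to the naming rule and 103 were printed beyond it. None of those whose direction turned was called in the comparison of E16 with E14. The turned log2 fold changes were Epcam 0.13, Fzd8 0.12, Hspa8 0.0253, Ihh 0.0441, Pdgfra 0.00315 and Slc40a1 0.0605 under RLE scaling, Epcam 0.13, Fzd8 0.12, Hspa8 0.0253, Ihh 0.0442, Pdgfra 0.00322 and Slc40a1 0.0607 under DESeq2, Epcam 0.0611 and Fzd8 0.0525 in WT libraries alone, Epcam 0.0126 and Fzd8 0.00555 with only the groups compared, Hba-x -0.00947 without a filter, and Hba-x -0.0764 and Tff2 -0.0832 when thinned. Leaving out 1 library gave ranges that crossed 0: Actg1 -0.0375 to 0.17, Epcam -0.16 to 0.0877, Fzd8 -0.16 to 0.0632, Hba-x -0.30 to 0.25, Igf2 -0.15 to 1.13, Lgr5 -0.31 to 0.27, Malat1 -0.53 to 1.71, Pdgfra -0.34 to 0.000844, Slc36a1 -0.28 to 0.94, Slc46a1 -0.00704 to 0.21 and Tff2 -0.25 to 0.56. Leaving out the first or second E14 or the first or second E16 library ended the calls of 38, 34, 27 and 29 of the 357 genes. At 3 counts the floor is 0.164 CPM in the shallowest of the 4 libraries, which limits the low genes most.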
